A study of Homo sapiens with 64 samples.

Results

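The comparison described here is what formoterol changed within 1 h in airway epithelial cells that received the glucocorticoid budesonide at the same time. It sets 4 arrays of cells given both agents (Bud_Form_1h) against 4 arrays of cells given budesonide without formoterol (Bud_1h), chosen by their sample titles, so 8 of the series' 64 arrays. All samples are BEAS-2B, an established line of virus-transformed human bronchial epithelial cells, which were kept without serum overnight and then treated with 100 nM budesonide, 10 nM formoterol, both, or neither (NS) for 1, 2, 6 or 18 h, with 4 independent experiments per condition. Untreated cells and cells given formoterol without budesonide for 1 h (4 arrays each) show the formoterol difference in the absence of the glucocorticoid, and the same pair of treatments at 2, 6 and 18 h (8 arrays each) gives it at later times. The line is transformed and grown as a single cell type, and the labels do not name the vehicle given to the untreated cells.

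Formoterol is a long-acting agonist of the β2-adrenoceptor, which couples through the stimulatory G protein to adenylyl cyclase. The cyclic AMP that is made activates protein kinase A, and that kinase phosphorylates CREB, a transcription factor that binds the cyclic AMP response element in promoters of early genes. Budesonide binds the glucocorticoid receptor, which is itself a transcription factor. The agents are inhaled together in asthma, and both act on gene expression in the bronchial epithelium.

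Values are the deposited log2 RMA values, 1 probe set per gene, on which a difference of 1 is a 2-fold change. Arrays are given in the order of replicates 1, 2, 3 and 4. A gene was called where its limma p, adjusted by Benjamini-Hochberg over 18132 genes, was below 0.05. The medians of the 16 arrays at 1 h lay between 4.87 and 4.93, and the correlation between arrays of 1 group was between 0.996 and 0.997 with budesonide and between 0.995 and 0.998 with both agents. The 3′ minus 5′ signal of the actin control probe sets was highest on replicate 1 in each of these groups, at 1.66 with budesonide and 1.52 with both agents, and its part in the results was not tested. Without any replicate 1 array at 1 h, 224 genes were called. Keratin 18 and keratin 8 read 11.26 and 9.49 with budesonide, whereas EPCAM at 2.41 and CDH1, the epithelial cadherin, at 4.25 were low, so the epithelial label rested on some of its usual markers and not on others.

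Adding formoterol to budesonide for 1 h called 267 genes (1.47% of those tested), 217 of them higher (1.20%) and 50 lower (0.276%). The rises were also the larger changes. The median called rise was 0.77 (1.71-fold) and the largest was 3.997, while the median called fall was -0.44 and the largest was -2.48. At least 2-fold changes numbered 82 among the rises and 3 among the falls, and 19 rises and 1 fall reached 4-fold. In 244 of the called genes the 4 arrays with both agents did not overlap the 4 with budesonide. Of all genes tested, 745 (4.11%) showed no such overlap. The median difference over all genes was 0.003. Same-numbered arrays of these groups deviated together for 3 of the 4 numbers. With the replicate number as a block, 437 genes were called, 322 higher and 115 lower. The values given for single genes are from the fit without the block unless marked.

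The size of a rise depended on the probe set. When the probe sets of each gene were averaged, in place of taking the brightest, 17 of the 75 named genes that were called had values smaller by over 1.5 times, and 15 of the 17 were still called. The exceptions were PDE4B and GADD45B, which are described with their values. NR4A3 then rose by 2.21, PRDM1 by 1.905, PTGS2 by 1.925, IL6 by 1.63 (its probe sets gave 0.325 and 2.93), LINC00473 by 1.52, IL11 by 1.39 and NR4A1 by 1.35. PDE4D and ATF3 rose by 1.0 each, MAFF by 0.72, NPTX1 by 0.62, LIF by 0.58, VEGFA by 0.57 and CRISPLD2 by 0.38, while EGR1 fell by 1.55. The values that follow are those of the brightest probe set.

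**Figure D1:**
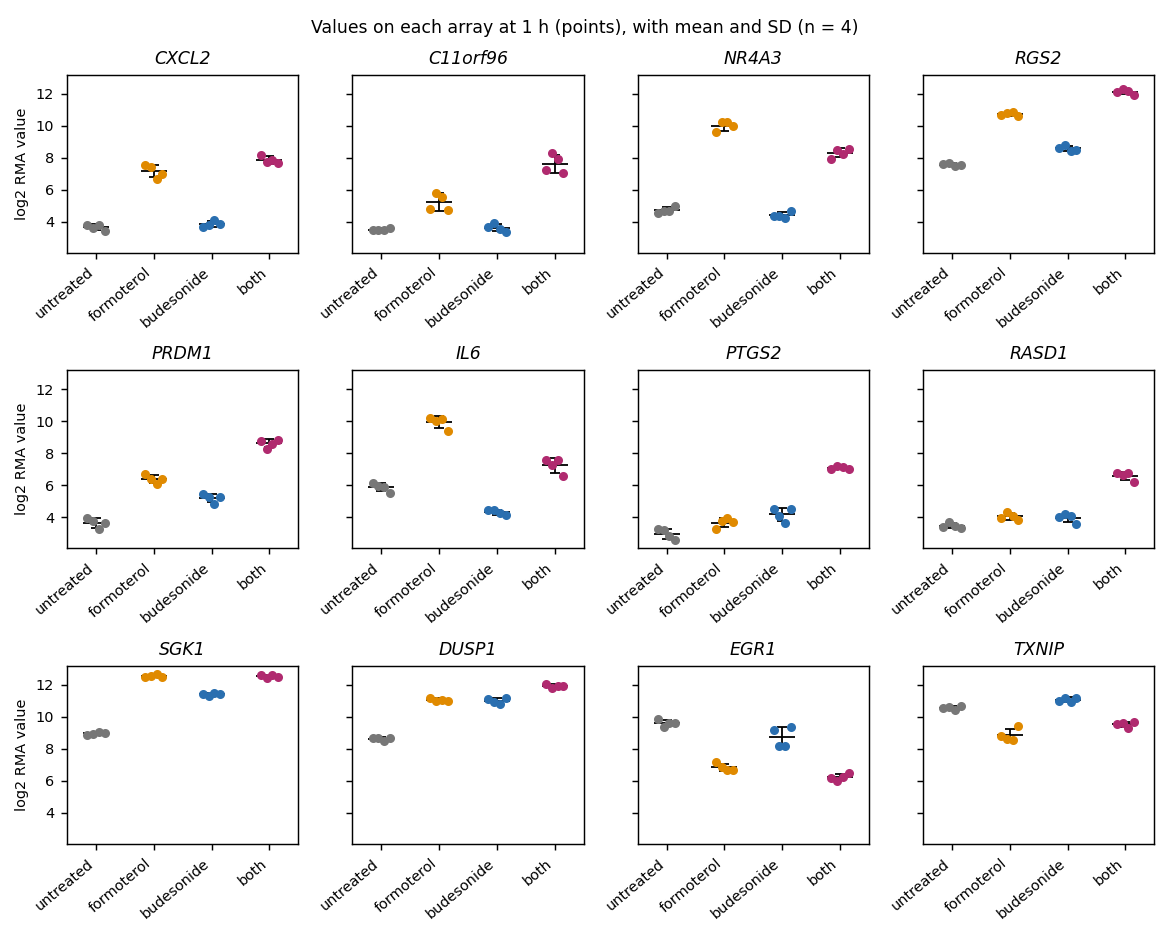
Log2 RMA values of 12 genes at 1 h on each array of untreated cells, formoterol, budesonide and both agents, with points for arrays and a bar for the mean and SD of 4. In 10 panels the arrays with both agents lie above those with budesonide, by 3.997 for CXCL2 down to 0.92 for DUSP1, and in the EGR1 and TXNIP panels they lie below.

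The orphan nuclear receptors NR4A1, NR4A2 and NR4A3, transcription factors that are textbook early targets of CREB, all rose. NR4A3 read 4.37, 4.33, 4.24 and 4.68 with budesonide and 7.93, 8.51, 8.23 and 8.53 with both agents, a difference of 3.90 (SE 0.16, 14.9-fold, adjusted p = 1.09e-28). NR4A2 read 3.96, 4.30, 3.31 and 4.18 with budesonide and 7.26, 7.46, 7.14 and 6.30 with both, a difference of 3.10 (SE 0.30, adjusted p = 5.03e-12). NR4A1 went from 6.34, 5.97, 6.06 and 6.28 to 9.12, 9.36, 9.26 and 8.74, a difference of 2.96 (SE 0.31, adjusted p = 1.06e-10). In all 3 the lowest array with both agents stood well above the highest with budesonide. For NR4A1, 6 of its 7 probe sets moved up and the other moved by -0.03. LINC00473, a non-coding RNA known to be induced through CREB, read 4.49, 4.11, 4.45 and 4.91 with budesonide and 7.03, 7.46, 7.95 and 7.51 with both agents (difference 2.996, adjusted p = 1.26e-18).

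The promoters of 4 of the called genes that carry the response element, or its core, are shown because they place those letters beside the measured rises. They are the RefSeq bases before the gene's start on GRCh38.p14, 250 each, 5′ to 3′ on the gene's strand. Capitals mark the full element TGACGTCA and its core TGACG, read on either strand, where the core is CGTCA on the other strand and every full element contains the core on both. NR4A3 (chr9:99821635-99821884, plus strand) has 4 cores and no full element in this stretch. MAFF (chr22:38201744-38201993, plus strand) has 1 full element that begins 54 bases before the start, DUSP1 (chr5:172771196-172771445, minus strand) has 1 that begins 125 bases before it, and CGA (chr6:87095107-87095356, minus strand), the glycoprotein hormone alpha subunit, has 2 that begin 142 and 124 bases before it.
NR4A3: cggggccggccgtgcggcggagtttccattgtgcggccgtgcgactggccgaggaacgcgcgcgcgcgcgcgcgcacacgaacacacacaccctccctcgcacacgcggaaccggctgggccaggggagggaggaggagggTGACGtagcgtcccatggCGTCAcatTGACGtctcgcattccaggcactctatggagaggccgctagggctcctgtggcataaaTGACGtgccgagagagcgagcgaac
MAFF: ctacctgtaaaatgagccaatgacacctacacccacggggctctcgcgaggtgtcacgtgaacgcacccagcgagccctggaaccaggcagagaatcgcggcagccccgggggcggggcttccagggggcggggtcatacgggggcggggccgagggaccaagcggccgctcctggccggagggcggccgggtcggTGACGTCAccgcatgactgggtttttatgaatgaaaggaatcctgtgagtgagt
DUSP1: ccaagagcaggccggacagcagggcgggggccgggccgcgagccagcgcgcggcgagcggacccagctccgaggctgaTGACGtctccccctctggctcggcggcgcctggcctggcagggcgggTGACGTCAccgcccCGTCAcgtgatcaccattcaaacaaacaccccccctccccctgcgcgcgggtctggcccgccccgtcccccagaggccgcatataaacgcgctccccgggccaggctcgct
CGA: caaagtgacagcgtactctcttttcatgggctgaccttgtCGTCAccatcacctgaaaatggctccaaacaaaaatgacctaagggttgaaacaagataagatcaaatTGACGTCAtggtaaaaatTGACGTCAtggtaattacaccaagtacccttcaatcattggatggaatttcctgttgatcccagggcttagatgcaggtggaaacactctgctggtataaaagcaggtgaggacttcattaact

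Windows of 300 bases (250 before and 50 after a start) were at hand for 170 of the 217 genes called higher, 42 of the 50 called lower and 14425 of all 18132 genes, with several starts for some. The full element stood in at least 1 window of 11 genes called higher (6.47%), of 0 called lower and of 448 of all genes (3.11%). The core stood in 76 genes called higher (44.7%), 17 called lower (40.5%) and 5046 of all genes (35.0%). Genes called higher had more windows each (1.59 against 1.41 over all genes), and counted by window the full element was in 4.07% against 2.32%. Among the rises of at least 2-fold, 3 of the 63 genes with a window held the full element (4.76%), in 2.48% of their windows. No window was at hand for NR4A2, and neither NR4A1 window held the core before its start. A match is only a description of these letters.

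Of the 20 measured genes on the list of cyclic AMP and CREB-induced genes, 10 rose (50%, against 1.20% of all genes) and 0 fell, with a median difference of 0.51 against 0.003 over all genes. This list and those below were chosen with earlier results of these data known, so the shares only describe their members. Beside the NR4A genes and LINC00473 the risers were RGS2, PDE4D, PDE4B, BDNF, DUSP1 and CITED2. Not called were FOS, the classical CREB-driven early gene, which read 5.54, 5.60, 5.83 and 5.48 with budesonide and 5.62, 5.86, 5.53 and 5.55 with both agents on its brightest probe set, FOSB (difference -0.06) and CREM, which encodes the cyclic AMP early repressor (0.12, adjusted p = 1). All 4 FOS probe sets moved up, by 0.028 to 0.856, and FOS was called with their mean (0.43). CREM has 10 probe sets, of which 8 moved up, with differences from -0.13 to 0.21.

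RGS2, which shuts off G protein signalling, read 8.60, 8.82, 8.41 and 8.50 with budesonide and 12.08, 12.26, 12.17 and 11.94 with both agents, a difference of 3.53 (SE 0.11, 11.6-fold, adjusted p = 6.55e-35). It was the only called gene among 18 measured regulators of G-protein signalling (5.56%, against 1.47% of all genes). Among 19 cyclic nucleotide phosphodiesterases, the enzymes that break down cyclic AMP, 2 rose (10.5%, against 1.20% of all genes). PDE4D read 5.61, 5.59, 5.41 and 5.79 and then 7.43, 7.85, 7.71 and 7.58 (difference 2.04, adjusted p = 2.66e-18), and 6 of its 7 probe sets moved up. PDE4B read 3.71, 2.54, 3.17 and 4.15 with budesonide and 4.54, 3.85, 4.49 and 4.94 with both, so the groups overlapped (difference 1.06, adjusted p = 0.00131). The PDE4B call was lost without budesonide replicate 2 (0.78), with only the 8 arrays fitted, and with the mean of its probe sets (0.32). ARRDC3, an arrestin-like protein linked to the sorting of the β2-adrenoceptor, read 6.19, 6.19, 6.71 and 6.70 and then 8.49, 8.65, 9.08 and 8.80 (difference 2.31, adjusted p = 1.8e-14). Of 38 measured receptors, G protein subunits, cyclases, kinase subunits, anchors and CREB family genes, 1 rose (2.63%, near the 1.20% of all genes), the kinase anchor AKAP12, at 9.81, 9.74, 9.55 and 9.36 with budesonide and 10.52, 10.87, 10.85 and 10.27 with both (difference 1.01, adjusted p = 5.03e-10).

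Of 31 measured cytokines and chemokines, many of which glucocorticoids are known to hold down, 6 rose (19.4%, against 1.20% of all genes), 0 fell and 25 were not called (median 0.12). CXCL2, a neutrophil-attracting chemokine, showed the largest difference of any gene. It read 3.64, 3.78, 4.08 and 3.89 with budesonide and 8.17, 7.71, 7.83 and 7.66 with both agents, a difference of 3.997 (SE 0.20, 15.97-fold, adjusted p = 5.08e-24). IL6 read 4.43, 4.43, 4.27 and 4.11 with budesonide and 7.55, 7.27, 7.57 and 6.57 with both, a difference of 2.93 (SE 0.19, 7.64-fold, adjusted p = 1.05e-18). IL11, of the same cytokine family, read 4.30, 3.74, 4.11 and 5.08 and then 6.43, 6.37, 6.95 and 7.30 (difference 2.46, SE 0.20, adjusted p = 1.08e-14). For each of the 3, every array with both agents exceeded every array with budesonide. LIF rose by 1.06, from 6.35 ± 0.09 to 7.41 ± 0.27 (SD, n = 4). CCL2, a monocyte chemokine, rose by 0.73, with overlap between the groups, and lost its call without budesonide replicate 3 (0.59). On this list 11 of the 31 read below the lower quartile of all probe sets (3.02) in both groups, where a change may not show. The neutrophil chemokine CXCL8 read 4.28, 4.36, 4.22 and 4.50 and then 5.004, 4.93, 4.79 and 4.90 without passing the test (0.57, adjusted p = 0.142), and CXCL1, of the same family, gave 0.54 (adjusted p = 0.0986). CXCL8 was called in 3 of 17 other settings, among them the fit of only the 8 arrays. CXCL1 was called in 4 of the 17, among them the mean of its probe sets (0.42) and the fit without budesonide replicate 4 (0.65).

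The level of IL6 under both agents lay between those under either agent. Untreated cells read 6.16, 5.95, 5.91 and 5.53, and cells with formoterol read 10.19, 10.002, 10.16 and 9.37. Budesonide without formoterol stood -1.58 from untreated (adjusted p = 9.83e-09), formoterol without budesonide 4.04, and both agents 1.35 (adjusted p = 3.44e-07). IL11 had the same order, with means of 5.66 ± 0.20 untreated, 4.30 ± 0.56 with budesonide, 8.96 ± 0.30 with formoterol and 6.76 ± 0.44 with both (SD, n = 4). All 4 arrays with both agents lay below all 4 with formoterol for IL6 and for IL11, and above all 4 untreated arrays. CXCL2 differed from them in order, at 3.66 ± 0.19 untreated, 3.85 ± 0.19 with budesonide, 7.16 ± 0.39 with formoterol and 7.84 ± 0.23 with both, the last 2 without overlap. The comparison of both agents with formoterol was not tested.

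The prostaglandin pathway had 1 called gene of 17 measured (5.88%, against 1.47% of all genes), and it was among the 10 largest rises. PTGS2, the inducible cyclooxygenase, read 4.50, 4.05, 3.67 and 4.51 with budesonide and 7.04, 7.19, 7.16 and 7.04 with both agents, a difference of 2.92 (SE 0.21, 7.58-fold, adjusted p = 2.96e-17). The 4 values with both agents lay within 0.15 of each other. C11orf96, an open reading frame of little known function, read 3.64, 3.91, 3.53 and 3.38 and then 7.21, 8.30, 7.90 and 7.03 (difference 3.99, SE 0.25, 15.9-fold, adjusted p = 7.66e-20). RASD1, a Ras-related small GTPase first described as dexamethasone-induced, read 3.99, 4.20, 4.07 and 3.59 and then 6.77, 6.66, 6.75 and 6.22 (difference 2.63, adjusted p = 7.43e-21). CD200, a membrane glycoprotein that restrains myeloid cells, read 6.67, 6.79, 5.90 and 6.32 and then 8.62, 9.11, 8.55 and 8.60 (difference 2.30, adjusted p = 3.46e-15). In each of the 4 genes the groups stood apart.

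Of 29 measured transcriptional repressors and inhibitory helix-loop-helix genes, 13 rose (44.8%, against 1.20% of all genes) and 0 fell (median 0.24). PRDM1, the zinc finger repressor also called Blimp-1, read 5.42, 5.28, 4.81 and 5.28 with budesonide and 8.77, 8.28, 8.60 and 8.84 with both agents, a difference of 3.42 (SE 0.23, 10.7-fold, adjusted p = 4.87e-18). ID3, which blocks helix-loop-helix activators from binding DNA, read 5.86, 6.11, 5.50 and 6.09 and then 7.84, 8.02, 8.03 and 8.05 (difference 2.10, adjusted p = 7.43e-21). SNAI2, a repressor of epithelial adhesion genes, rose by 1.82, TSC22D1 by 1.61 (2 of its 3 probe sets) and BHLHE40, a clock repressor, by 1.28. TOB1, an antiproliferative protein that promotes mRNA deadenylation, rose by 1.02 and was also 1 of 4 risers among 13 mRNA decay regulators (30.8%). CITED4, a coactivator-binding protein, went from 6.63, 6.95, 6.59 and 6.82 to 8.31, 8.52, 8.43 and 8.31 (difference 1.64, adjusted p = 7.89e-18), 1 of 3 risers among 14 C/EBP, CITED and coactivator genes (21.4%).

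The immediate early transcription factors split. Of 21 measured, 5 rose (23.8%, against 1.20% of all genes) and 4 fell (19.0%, against 0.276% of all genes), with a median of 0.03. ATF3, a stress-induced member of the ATF/CREB family, rose from 7.05, 6.997, 6.67 and 7.19 to 8.75, 9.12, 9.14 and 8.80 (difference 1.98, adjusted p = 8.14e-20). MAFF rose by 1.36, KLF4 by 1.36, KLF2 by 0.96 and MYC by 0.60. EGR1, the zinc finger factor that growth factor signalling induces, showed the largest fall of all genes, reading 9.16, 8.16, 8.16 and 9.34 with budesonide and 6.16, 6.02, 6.23 and 6.51 with both agents, a difference of -2.48 (SE 0.20, adjusted p = 1.95e-15). The budesonide arrays of EGR1 were themselves spread, with replicates 1 and 4 about 1 log2 unit above replicates 2 and 3. FOSL1, JUN and IER5 fell by 0.68, 0.52 and 0.59. The JUN arrays overlapped between the groups, and JUN was not called with only the 8 arrays fitted. The FOSL1 call was lost without either budesonide replicate 2 (-0.61) or 3 (-0.64), and without replicate 2 (-0.66) or 3 (-0.66) of both agents, and without all replicate 1 arrays.

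Brakes on the MAP kinase pathway moved in both directions. Among 18 measured phosphatases and feedback inhibitors 5 rose (27.8%, against 1.20% of all genes) and 2 fell (11.1%, against 0.276%), with a median of 0.11. SPRY2, which restrains receptor tyrosine kinase signalling, read 7.94, 7.69, 7.59 and 7.91 and then 9.07, 8.89, 9.11 and 9.02 (difference 1.24, adjusted p = 1.74e-11). DUSP5 and DUSP4, nuclear phosphatases, rose by 1.02 and 0.63. DUSP6, the cytoplasmic phosphatase of ERK, went from 7.50, 7.11, 6.68 and 7.49 to 6.53, 6.24, 6.16 and 5.95 (difference -0.98, adjusted p = 2.86e-05), and SPRY1 from 7.93, 7.77, 7.69 and 7.86 to 7.40, 6.91, 7.24 and 7.41 (difference -0.57, adjusted p = 0.000346). Members of 1 family went opposite ways, SPRY2 up and SPRY1 down, both without overlap.

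Secreted growth factors and hormones gave 7 rises (26.9%, against 1.20% of all genes) and 0 falls among 26 measured (median 0.13). EDN1, the precursor of the constrictor peptide endothelin, read 8.37, 8.02, 8.03 and 8.25 and then 9.97, 9.78, 10.03 and 9.93 (difference 1.76, adjusted p = 9.78e-14). VEGFA, which drives vessel growth, rose by 1.44 (adjusted p = 4.42e-12), the neurotrophin BDNF by 1.41, the EGF receptor ligand HBEGF by 1.27 and the vasodilator peptide ADM by 0.98. The other risers were STC1, a secreted glycoprotein (0.99), and BMP2, a bone morphogenetic protein (0.90, SE 0.24, adjusted p = 0.0352). BMP2 read 2.635 with budesonide, under the lower quartile of all probe sets (3.02), and 3.54 with both agents.

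Growth arrest and cell cycle genes gave 9 rises (32.1%, against 1.20% of all genes) and 2 falls (7.14%, against 0.276%) among 28 measured (median 0.10). Both falls were among the 3 that reached 2-fold. TXNIP, an inhibitor of thioredoxin and of glucose uptake, read 10.995, 11.19, 10.91 and 11.17 with budesonide and 9.56, 9.62, 9.31 and 9.66 with both agents, a difference of -1.53 (SE 0.16, adjusted p = 1.39e-10). GADD45A, a growth arrest and DNA damage gene, read 12.22, 12.28, 12.07 and 12.06 and then 11.22, 11.41, 11.06 and 10.94 (difference -1.002, SE 0.09, adjusted p = 6.01e-13). Neither pair of groups overlapped. PLK2, a stress-responsive kinase, rose by 1.16, a call not kept with the mean of its probe sets (0.96), and CDKN1C, an inhibitor of cyclin-dependent kinases, by 1.13, a call lost without replicate 2 of both agents (0.90). Among the smaller falls, named after their values were seen, HYLS1, a centriole gene, fell by 0.81 and WEE1, the kinase that holds cells before mitosis, by 0.58.

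Of 30 measured genes that glucocorticoids are known to induce, 14 rose when formoterol was added (46.7%, against 1.20% of all genes). On this list 0 fell and the median difference was 0.54. Formoterol without budesonide also raised 14 of the 30, not all of them the same genes. The largest riser on the list, RGS2 (3.53), and DUSP1 are on the cyclic AMP list too. TSC22D3, also called GILZ, a leucine zipper protein and standard glucocorticoid target, read 10.41, 10.75, 10.44 and 10.39 with budesonide and 11.11, 11.50, 11.25 and 10.96 with both (difference 0.71, adjusted p = 2.35e-06). SGK1, a kinase that regulates ion channels, read 11.41, 11.31, 11.51 and 11.40 and then 12.60, 12.43, 12.63 and 12.51 (difference 1.13, adjusted p = 3.59e-11). DUSP1, the phosphatase that switches off p38 and JNK, read 11.12, 10.92, 10.77 and 11.19 and then 12.04, 11.79, 11.91 and 11.94 (difference 0.92, adjusted p = 1.74e-11). KLF4 rose by 1.36, the C/EBP factor CEBPD by 1.21, TNFAIP3, which removes ubiquitin from NF-κB signalling proteins, by 1.16, the thiamine transporter SLC19A2 by 0.98, NFIL3 by 0.84 and ERRFI1, an inhibitor of the EGF receptor, by 0.66. Some calls on this list rested on single arrays. CRISPLD2 (1.17), RGCC (0.73) and MT1X (0.69) lost theirs without replicate 2 of both agents (0.82, 0.66 and 0.57) or without a budesonide array, which was replicate 4 for CRISPLD2 (0.97) and RGCC (0.59) and replicate 3 for MT1X (0.58), and RGCC also lost its call without replicate 3 of both agents (0.65). CRISPLD2 was not called with only the 8 arrays fitted.

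Other glucocorticoid targets did not pass the test. FKBP5, a chaperone partner of the receptor, read 9.17, 9.42, 9.16 and 9.03 with budesonide and 9.09, 9.39, 9.13 and 9.05 with both agents, and budesonide without formoterol stood 0.26 above untreated cells (adjusted p = 0.72). NFKBIA, the NF-κB inhibitor, stood 2.63 above untreated cells with budesonide, and adding formoterol gave a difference of -0.15. For ZFP36, an mRNA decay factor, the same differences were 1.81 and 0.19. For the clock gene PER1 they were 2.73 and 0.53 (adjusted p = 0.965 for the latter), although its 4 arrays with both agents lay above the 4 with budesonide. PER1 was called in 2 of 17 other settings, among them the fit of only the 8 arrays. Of its 3 probe sets 2 moved up, with differences from -0.109 to 0.525. Members of NF-κB and its targets gave 2 rises of 20 (10.0%, against 1.20% of all genes), TNFAIP3 and NFKBIZ, an inhibitor-like regulator of inflammatory genes, which rose by 0.997.

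The formoterol difference was also measured without the glucocorticoid, on arrays that are not among the 8. There, 185 genes were higher (1.02%) and 58 lower (0.320%). Same-numbered arrays of these groups deviated together, and with the replicate number as a block 318 genes were higher (1.75%) and 239 lower (1.32%). Of the 217 genes that rose with budesonide present, 134 also rose without it, which is 61.8% of the 217 and 72.4% of the 185. A further 82 were not called and 1, GADD45B, was called lower. With the block for formoterol alone, 164 of the 217 also rose and 34 of the 50 also fell. Of the 50 that fell, 23 also fell without budesonide, which is 46.0% of the 50 and 39.7% of the 58. Over the 217 the median difference was 0.77 with budesonide and 0.59 without it, where the former is a description because it chose them. EGR1 (-2.48 with budesonide, -2.78 without), TXNIP (-1.53 and -1.71), PDE4D (2.04 and 1.98), ATF3 (1.98 and 1.95) and CITED4 (1.64 and 1.64) differed between the settings by 0.01 to 0.30, with no called difference.

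**Figure D2:**
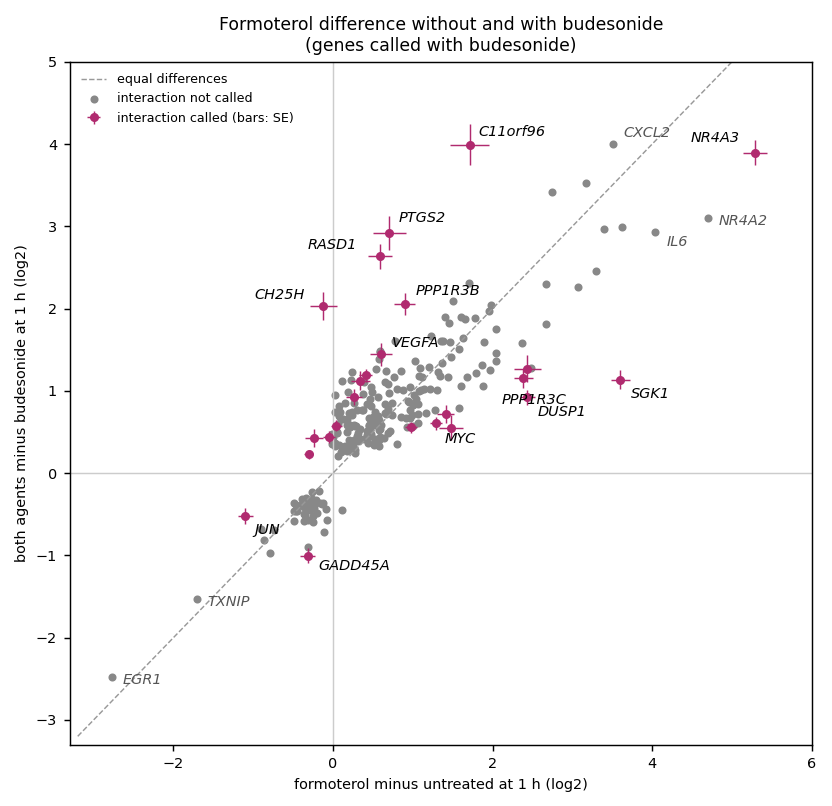
Formoterol difference at 1 h without budesonide (x axis, log2) against that with budesonide (y axis, log2) for the 267 genes called with budesonide. The dashed line marks equal differences, magenta points have a called interaction and carry SE bars, and PTGS2, C11orf96, RASD1 and CH25H stand above the line while SGK1, DUSP1 and NR4A3 stand below it.

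The interaction is the log2 formoterol difference with budesonide minus that without it. It was called for 31 genes (0.171%), 14 above and 17 below 0, and for 72 with the replicate number as a block. A value below 0 is a smaller fold change, and whether the separate changes of the agents add on the unlogged scale was not tested. Of the named genes above 0, all except JUN, which fell less with budesonide, and GADD45B had a larger rise with formoterol when budesonide was present. PTGS2 was 1 of them. Formoterol without budesonide left it at 3.25, 3.78, 3.93 and 3.70 beside 3.28, 3.18, 2.81 and 2.57 in untreated cells (0.71, adjusted p = 0.0846, and 0.00711 with the block), and the interaction was 2.22 (SE 0.30, adjusted p = 1.1e-06). Its untreated mean of 2.96 was under 3.02, that lower quartile, where a difference may be understated. RASD1 moved from 3.46 ± 0.16 to 4.05 ± 0.21 with formoterol (SD, n = 4), a call kept in 3 of 8 fits that left out 1 array and lost without formoterol replicate 2 (0.49) or 3 (0.58) or untreated replicate 1 (0.56), 3 (0.58) or 4 (0.55). Its interaction was 2.05 (SE 0.22, adjusted p = 1.58e-09). C11orf96 rose by 1.71 without budesonide and by 3.99 with it (interaction 2.28, SE 0.35, adjusted p = 3.03e-05).

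Several further genes with an interaction above 0 were named after their values were seen. CH25H, which makes the oxysterol 25-hydroxycholesterol, read 2.31, 2.31, 2.36 and 1.90 untreated, 2.23, 2.05, 2.06 and 2.04 with formoterol, 2.04, 2.47, 2.16 and 2.14 with budesonide and 3.77, 4.49, 5.20 and 3.47 with both, so it stood above the lower quartile of the scale only with both (interaction 2.16, adjusted p = 9.53e-09). PPP1R3B, a glycogen-targeting subunit of protein phosphatase, rose by 0.90 without and 2.05 with budesonide (interaction 1.15, adjusted p = 9.87e-05). The sulfate transporter SLC26A2 rose by 0.41 and 1.19 (interaction 0.78). PLAT, tissue plasminogen activator, and ADAMTS1, a matrix protease, had interactions of 0.78 and 0.66, and each kept its call in 14 of 16 fits that left out 1 array. The others were PLAT without replicate 2 of both agents (0.69) or budesonide replicate 4 (0.69), and ADAMTS1 without budesonide replicate 2 (0.58) or untreated replicate 3 (0.59). Formoterol gave ADAMTS1 an uncalled 0.26 without budesonide, called with the block, and 0.92 with it, from a mean of 9.63 to 10.55. Untreated replicate 3 of ADAMTS1 read 10.98 and the next highest untreated array 10.675, so both stood above the mean with both agents. VEGFA and JUN gave interactions of 0.85 and 0.58, each kept in 6 of 16 such fits, with values from 0.75 to 0.97 for VEGFA and from 0.46 to 0.68 for JUN. VEGFA kept its call without replicate 1 or 2 of both agents, budesonide replicate 4, formoterol replicate 3 or 4 or untreated replicate 2, and JUN without replicate 2 or 3 of both agents, budesonide replicate 1 or 4 or formoterol replicate 1 or 4. GADD45B gave -0.31 without and 0.23 with budesonide (interaction 0.53, adjusted p = 5.42e-05). The GADD45B call with budesonide was lost in 10 of 17 settings. These were each array centred, quantile scaling, no trend, only the 8 arrays fitted, the mean of its probe sets (0.15), all replicate 1 arrays left out, and fits without replicate 2 or 3 of both agents (0.23 and 0.19) or budesonide replicate 1 or 3 (0.22 and 0.20), while its interaction was kept in 16 of 16 fits.

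Of the named genes below 0, all except GADD45A rose with formoterol when budesonide was absent and had a smaller fold change when it was present. SGK1 rose by 3.60 without budesonide, from 8.86, 8.92, 9.08 and 8.99 to 12.51, 12.56, 12.69 and 12.50, and by 1.13 with it, and its interaction was -2.47 (SE 0.16, adjusted p = 2.6e-17). Its means were 12.56 with formoterol and 12.54 with both agents. DUSP1 rose by 2.43 and 0.92 (interaction -1.51, adjusted p = 9.17e-13), with means of 8.63 untreated, 11.06 with formoterol and 11.92 with both. DDIT4, an inhibitor of mTOR signalling, read 7.63 ± 0.12 untreated, 9.92 ± 0.31 with formoterol, 10.54 ± 0.13 with budesonide and 10.97 ± 0.11 with both (SD, n = 4). Formoterol thus gave 2.29 without budesonide and an uncalled 0.43 with it (interaction -1.86, adjusted p = 2.35e-08). The 0.43 was called in 3 of 17 other settings, among them the fit of only the 8 arrays. KLF9, a steroid-responsive factor, followed with 1.66 and an uncalled 0.36, which was called in 1 of the 17 settings (interaction -1.30). For BCL6, a repressor, the values were 0.60 and an uncalled -0.09 (interaction -0.69). In these 5 genes budesonide without formoterol gave differences of 2.30 to 2.91 from untreated cells. All 5 probe sets of BCL6 read lower with both agents than with budesonide at 1 h, with differences from -0.557 to -0.089. BCL6 was called lower at 2 h (-0.58).

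NR4A3, which stood -0.31 from untreated cells with budesonide (not called), also had an interaction below 0. It rose by 5.29 without budesonide, to 9.58, 10.24, 10.23 and 9.95, and by 3.90 with it (interaction -1.39, SE 0.22, adjusted p = 5.63e-05). NR4A2 gave 4.70 and 3.10 and NR4A1 3.40 and 2.96, with interactions of -1.60 and -0.44 that did not pass (adjusted p = 0.164 and 1). IL6 had an interaction of -1.11 (adjusted p = 0.0805), which did not pass either. With the replicate number as a block in limma, the NR4A2 and IL6 interactions were called (adjusted p = 0.00591 and 0.000849). PPP1R3C, another glycogen-targeting subunit and named after its values were seen, rose by 2.39 without and 1.15 with budesonide (interaction -1.24, adjusted p = 1.1e-06), opposite in sign to PPP1R3B. MYC gave 1.29 and 0.60 (interaction -0.69), and GADD45A -0.32 and -1.002 (interaction -0.68). The GADD45A difference without budesonide was not called (adjusted p = 0.065), and with the block it was (0.00328). Budesonide without formoterol stood 1.56 above untreated cells for GADD45A, and both agents stood 0.56 above them.

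The number of called genes was larger at 2 and 6 h than at 1 h, in fits with and without the replicate number as a block. At 2 h, 514 genes were higher (2.83%) and 280 lower (1.54%) with both agents than with budesonide, at 6 h 709 (3.91%) and 509 (2.81%), and at 18 h 55 (0.303%) and 63 (0.347%). Same-numbered arrays deviated together at each of these times, and with the block 853 were higher (4.70%) and 679 lower (3.74%) at 2 h, 1381 (7.62%) and 1206 (6.65%) at 6 h and 269 (1.48%) and 396 (2.18%) at 18 h. The order of 1 and 18 h turned with the block, 267 and 118 genes without it and 437 and 665 with it. Of the 217 that rose at 1 h, 192 were also higher at 2 h (88.5% of the 217, 37.4% of the 514), 85 at 6 h (39.2%) and 9 at 18 h (4.15%), and 6 were lower at 6 h. Of the 50 that fell, 38 were lower at 2 h (76.0%), 3 at 6 h and 0 at 18 h, where 1 was higher. With the block at the later times, 201 of the 217 were higher at 2 h, 119 at 6 h and 18 at 18 h, and 8 and 5 were lower at 6 and 18 h. Of the 50, 42 were lower at 2 h, 6 at 6 h and 1 at 18 h. The median over the 217 was 0.94 at 2 h, 0.30 at 6 h and 0.04 at 18 h. The 18 h counts moved most with the arrays used, between 76 and 115 in all when 1 array was left out against 118 with all arrays.

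Among NR4A genes and cytokines, NR4A1 had a difference of 2.82 at 2 h and -0.07 at 6 h, NR4A2 2.83 and then 0.83, and CXCL2 2.15 and 0.04, with the 2 h values called and the 6 h values not, except that NR4A2 was called at 6 h with the block (adjusted p = 0.0112). NR4A3 was still called at both times, with 4.99 and 1.17, as was CCL2 with 1.01 and 1.17, and CXCL1 was called at 6 h (0.67). IL6 had a called difference of 1.38 at 2 h and an uncalled 0.29 at 6 h. EGR1 was still lower at 6 h (-1.34) and was not called at 18 h (0.11). TXNIP was lower at 2 h (-1.44) and not called at 6 h (0.10).

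Other genes were still called later, or had larger differences later. RGS2 kept differences of 3.35 at 2 h, 2.39 at 6 h and 1.07 at 18 h, all called. PDE4D had 3.21 and 2.25 at 2 and 6 h and PRDM1 3.20 and 1.86. C11orf96 peaked at 4.95 at 2 h and gave 0.997 at 18 h, where the call was kept only in the fit without replicate 3 of both agents and lost without any other single array (0.91 to 1.02). The next 3 genes were named after their values were seen. NPTX1, a secreted neuronal pentraxin, went from 1.08 at 1 h to 3.91 and 4.20, and its call at 1 h was lost without replicate 2 or 3 of both agents (0.87 and 0.88) and with only the 8 arrays fitted. SLC7A2, an arginine transporter, went from 0.82 to 2.59 and 2.22. CGA went from 0.77, a call lost without budesonide replicate 4 (0.67) and without all replicate 1 arrays, to 1.56, 2.09 and, at 18 h, 1.17. The tight junction gene CLDN1, the 1 riser of 13 airway epithelial markers at 1 h (7.69%, against 1.20% of all genes), had 0.77, 1.23 and 0.94 at 1, 2 and 6 h.

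**Figure D3:**
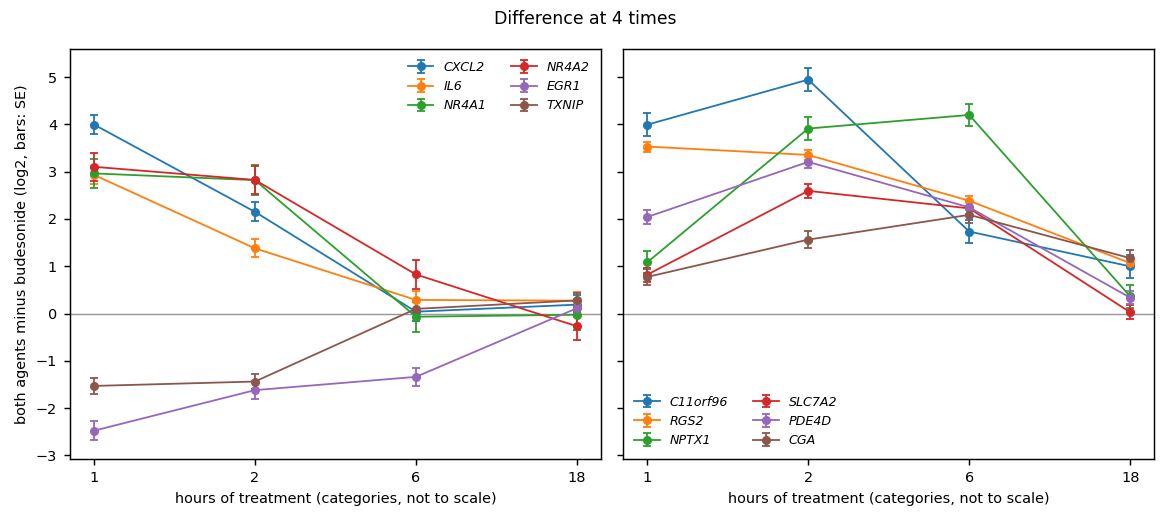
Difference between both agents and budesonide (log2, y axis, bars show SE) after 1, 2, 6 and 18 h for 12 genes. On the left CXCL2, IL6, NR4A1 and NR4A2 are highest at 1 h and EGR1 and TXNIP lowest, and on the right NPTX1 rises from 1.08 to 4.20 at 6 h while RGS2 and CGA remain above 1 at 18 h.

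Several lists gave no call with limma at 1 h. With 1.47% of all genes called, 0 calls in lists this short does not set them apart from other genes. Of 10 measured genes for the glucocorticoid receptor, its chaperones and steroid-converting enzymes, 0 were called and 0 had an unadjusted p under 0.05. NR3C1, the receptor itself, read 10.39, 10.26, 10.48 and 10.50 with budesonide and 10.37, 10.43, 10.56 and 10.65 with both agents (difference 0.10, SE 0.09). The 15 JAK-STAT inhibitors and IL6 family receptors also gave 0 calls and 0 at an unadjusted p under 0.05, among them SOCS3, which read 3.70, 3.83, 3.64 and 4.46 and then 3.73, 3.82, 3.45 and 4.05 (difference -0.15). SOCS3 was called at 2 h (1.43). The 10 cholesterol synthesis genes gave 0 calls and 2 at an unadjusted p under 0.05, and the 12 ribosomal proteins 0 and 0. Markers of other cells gave 0 calls among 8 ciliated and secretory, 11 leukocyte, 8 endothelial and 10 fibroblast and smooth muscle genes, and 1 leukocyte marker at an unadjusted p under 0.05. In the same order, 3, 3, 3 and 2 of these markers read below the lower quartile (3.02) in both groups. The pan-leukocyte gene PTPRC read 2.03 with budesonide and 2.04 with both agents, and the endothelial gene EMCN 2.07 and 2.08.

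**Figure D4:**
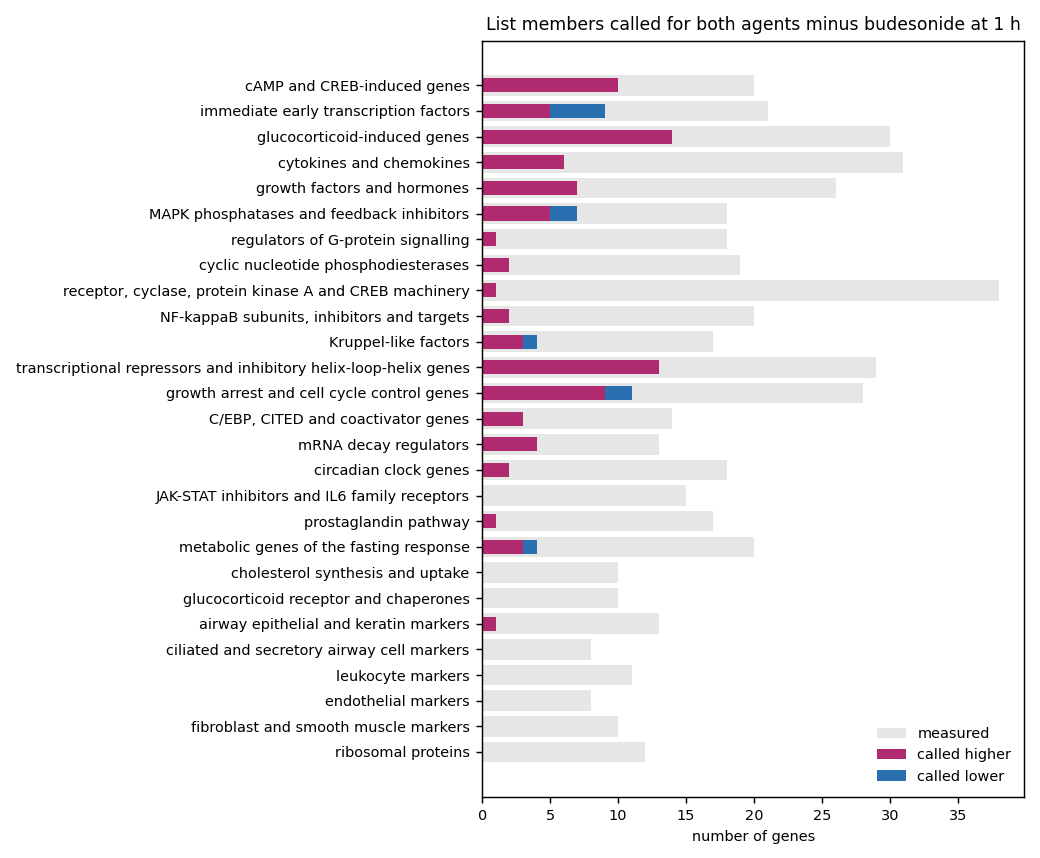
Number of genes measured (grey), called higher (magenta) and called lower (blue) for both agents against budesonide at 1 h in each of 27 gene lists. The glucocorticoid-induced list holds the most rises, 14 of 30, followed by the repressors with 13 of 29 and the cyclic AMP list with 10 of 20. The lists were chosen with earlier results of these data known.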

How the data were processed

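BEAS-2B RNA was read on Affymetrix arrays, and the deposited values are log2 RMA values per probe set, already background-corrected, normalized and summarised by the authors with RMA (per the submitters' processing notes, version not given in the sources used here). RMA fits all arrays together and compresses low signals, so differences of dim genes may be understated. No detection calls were at hand.

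Groups come from the sample titles. Of 49395 probe sets, those with 1 gene symbol were kept, and each of 18132 genes was represented by the probe set whose mean across the 64 arrays was greatest. limma 3.58.1 (R 4.3.3) fitted 1 mean per group over all arrays, with 48 residual degrees of freedom, a mean-variance trend, two-sided tests and Benjamini-Hochberg adjustment at 0.05. The scripts were tested on simulated data. Named genes are the 14 largest rises and falls (3 qualified) among called genes changed at least 2-fold, with no overlap between groups and the higher mean not under the median probe set value (4.90), plus list members. Exceptions are marked. Some results are not reported here. The members and lists were chosen with earlier results of these data known. Replicate numbers in the titles were shared across treatments, and the labels do not say what a number marks. Deviations from group means of same-numbered arrays correlated at 0.17 to 0.41 for untreated and formoterol arrays at 1 h, and for budesonide and both agents at 0.32 to 0.47 at 2 h, 0.23 to 0.32 at 6 h and 0.19 to 0.33 at 18 h, so the data paired these arrays and a block by number is given beside their counts. Promoters are RefSeq's (GRCh38.p14). Alternatives covered scaling, dim genes, probe sets, trend, arrays fitted, single arrays left out and a replicate block.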

Additional observations from a re-analysis of the deposited data

Results flagged for a closer look

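The formoterol difference depended on budesonide by the interaction test in limma for 20 genes named in the text. As a signed value it was higher with budesonide for C11orf96 (2.28), PTGS2 (2.22), CH25H (2.16), RASD1 (2.05), PPP1R3B (1.15), VEGFA (0.85), SLC26A2 (0.78), PLAT (0.78), ADAMTS1 (0.66), JUN (0.58) and GADD45B (0.53). It was lower with budesonide for SGK1 (-2.47), DDIT4 (-1.86), DUSP1 (-1.51), NR4A3 (-1.39), KLF9 (-1.30), PPP1R3C (-1.24), MYC (-0.69), BCL6 (-0.69) and GADD45A (-0.68). Values are log2 differences of differences, signed, with 4 arrays in each of 4 groups.

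A single array stood far from the other 3 of its group in 22 of 360 gene and group pairs (6.11%), where chance gives about 1 in 20. With budesonide, these were replicate 2 for CREM (7.25), TSC22D3 (10.75) and PLK2 (7.44), replicate 3 for DUSP5 (9.55) and replicate 4 for BHLHE40 (5.87). With both agents, they were replicate 2 for CD200 (9.11), CITED2 (11.87) and PLK2 (8.47) and replicate 1 for ID3 (7.84). Untreated cells gave replicate 4 for C11orf96 (3.62), BHLHE40 (6.45), CH25H (1.90) and PLAT (8.37) and replicate 3 for DUSP1 (8.46), FOS (5.83), ERRFI1 (8.52) and ADAMTS1 (10.98). With formoterol, the arrays were replicate 4 for NR4A2 (8.23) and KLF4 (6.38), replicate 1 for DUSP1 (11.19) and CH25H (2.23) and replicate 3 for BHLHE40 (8.25). PLK2 was low on replicate 2 of both groups compared.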

How the results depend on the processing

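Genes called at 1 h with both agents against budesonide numbered 267, and between 210 and 248 when 1 array was left out. The same ranges were 196 to 249 for formoterol alone (243), 24 to 31 for the interaction (31), 673 to 728 at 2 h (794), 971 to 1116 at 6 h (1218) and 76 to 115 at 18 h (118). The lowest 18 h counts came without budesonide replicate 2 (76) or 4 (77) of that time. Fitting only the arrays compared gave 501 genes at 2 h and 184 at 18 h. A replicate block within each time gave 437 genes for both agents against budesonide at 1 h, 557 for formoterol alone, 72 for the interaction, 1532 at 2 h, 2587 at 6 h and 665 at 18 h. A replicate block with only the compared arrays gave 435, 679, 75, 1396, 2599 and 1306 in the same order. Of the 90 named genes the block within each time added calls without losing any, for 9 with formoterol alone, 13 in the interaction (NR4A2 and IL6 among them), 3 at 2 h, 18 at 6 h and 6 at 18 h. Deviations of same-numbered budesonide and both-agent arrays at 1 h correlated at 0.24, 0.36, 0.098 and 0.43 for replicates 1 to 4. Replicate 3 correlated better with another number (0.13). Each of these groups did pair by number with the formoterol arrays at 1 h, at 0.15 to 0.37 for budesonide and 0.18 to 0.44 for both agents. The highest correlation with another number was 0.08 and 0.12 there. With the untreated arrays, 3 of the 4 numbers paired in each group. The 437 genes of the block therefore stand beside the 267 without it. Centring, quantile scaling, leaving out dim genes, no trend and the mean of probe sets kept each count within 1.5 times. Of 1529 gene and setting pairs over the 90 named genes, 1480 kept direction and call, 35 lost and 14 gained the call, and 0 reversed. The counts over these 90 include ZNF331 and leave out STC1, BMP2 and most cell markers. The calls gained were CXCL1 in 4 settings, CXCL8 and DDIT4 in 3 each, PER1 in 2 and FOS and KLF9 in 1 each, of 17. Of 75 named genes called, 63 kept the call under every setting run. Without detection calls, values under 3.02 may lie at the floor, and 4 arrays per group limit the precision.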

Other observations

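Zinc finger genes with a ZNF number in their symbol were frequent among the falls, a grouping chosen after the values were seen. Of 491 such genes tested (2.71% of all genes), 10 were lower with both agents than with budesonide at 1 h (2.04%), against 50 of all 18132 genes (0.276%). Only 2 were higher (0.407%), the larger rise being that of ZNF331 (2.27). The 10 falls were small, between -0.52 and -0.34 on the log2 scale.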
